A study of Nicotiana tabacum with 6 samples.

Results

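This set of genes comprised the tobacco genes whose transcripts differed between imbibed seeds that overexpressed the heat stress factor A4a and their nontransgenic (NT) siblings, and that reached an appreciable level. A gene was taken from the table of higher genes (log2 fold of at least 0.6) or of lower genes (at most -0.5) if its larger value of the pair was 10 FPKM or more. FPKM is the number of sequenced fragments corrected for transcript length and library depth. Of 29629 genes in these 2 tables, 990 met this rule, 485 higher and 505 lower in DS10:A4a seeds. The threshold fell in a continuous range, with 10 FPKM for the lowest gene inside and 9.99 FPKM for the highest gene outside. Genes from 10 to under 11 FPKM numbered 89 (35 higher), and those from 9 to under 10 FPKM numbered 126 (44 higher).

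DS10:A4a seeds (Nicotiana tabacum var. Xanthi) carried the sunflower factor HaHSFA4a under the seed-specific DS10 promoter, and NT seeds came from nontransgenic segregants of the same lines. Both were mature seeds imbibed for 24 h in darkness, and both contain their own A9, the seed-specific heat stress factor. The lines were 3 sibling pairs with single, homozygous integrations at different locations. For each group 4 RNA samples were mixed in equal amounts and sequenced as 1 pooled library, so no test between the groups was possible. The tables held 1 gene described from sunflower, which was no heat stress factor, so the transgene itself was not checked here. In whole seeds, fewer cells of a type and less RNA per cell cannot be told apart.

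Heat stress factors are transcription factors that bind heat shock elements in promoters. They activate chaperone genes under heat and, during seed maturation, without any heat. Small heat shock proteins (sHSP) hold unfolding proteins in solution, HSP70 with its DnaJ partners and HSP90 refold them, and ubiquitin marks those that are to be degraded. Imbibition restarts respiration, translation and reserve use in the dry embryo, and abscisic acid, ethylene and light signals set whether germination proceeds.

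The depth of the libraries, recovered from the steps of the FPKM values, was 16362000 fragments for DS10:A4a seeds and 16378000 fragments for NT seeds. The larger value of a pair rested on a median of 417 fragments, and on 26 fragments at the least. Exact (Clopper-Pearson) 95% intervals of the log2 fold were computed from these fragments and are called counting intervals. They cover counting error only, not the spread between lines or pools. On the log2 scale their median half-width was 0.22 (higher genes) and 0.26 (lower genes). The interval reached 0 in 8 higher and 14 lower genes. No gene of the set was listed at 0 in either library.

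Among these 990 genes, 49.0% were higher and 51.0% lower in DS10:A4a seeds, against 46.0% higher and 54.0% lower over all 29629 genes of the tables. The folds were not symmetric. Higher genes had a median log2 fold of 0.90 (DS10:A4a seeds over NT seeds, as for every fold here) and reached 8.17, whereas lower genes had a median of -0.60 and went no lower than -1.80. A log2 fold of 1 or more was found in 201 genes (20.3%) and one of -1 or less in 36 (3.64%). The corresponding shares were 32.0% and 31.8% over all genes of the tables, and 22.9% and 25.0% over the 20595 genes above 0 in both libraries. Most genes of the tables, 21058, were below 1 FPKM in both libraries. In 243 of the 505 lower genes the fold lay between -0.5 and -0.6, a range in which the table of higher genes lists nothing. The plot of levels in both libraries shows this asymmetry as a wide upper cloud and a narrow lower band.

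**Figure D1:**
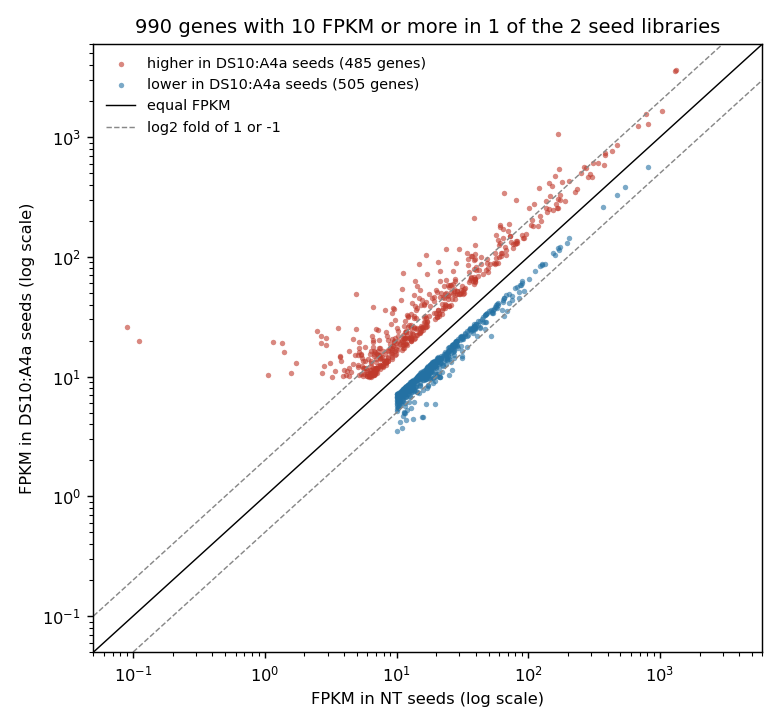
FPKM of each of the 990 genes in DS10:A4a seeds (vertical axis) and NT seeds (horizontal axis), both on log scales, with 1 point per gene and 1 library per axis. The 485 higher genes spread up to a log2 fold of 8.17 above the line of equal FPKM, while the 505 lower genes stay within -1.80 of it, and the empty band around the line comes from the thresholds of the tables.

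The direction changed with the level of the transcript. From 10 to under 20 FPKM, 174 of 479 genes (36.3%) were higher. The share was 147 of 294 genes from 20 to under 50 FPKM, 66.7% of 108 genes from 50 to under 100 FPKM and 83.1% of 89 genes from 100 to under 500 FPKM. At 500 FPKM or more, 18 of 20 genes were higher. Summed over the higher genes, the level was 49131 FPKM in DS10:A4a seeds and 23613 FPKM in NT seeds. The lower genes summed to 9868 FPKM in DS10:A4a seeds and 15201 FPKM in NT seeds.

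**Figure D2:**
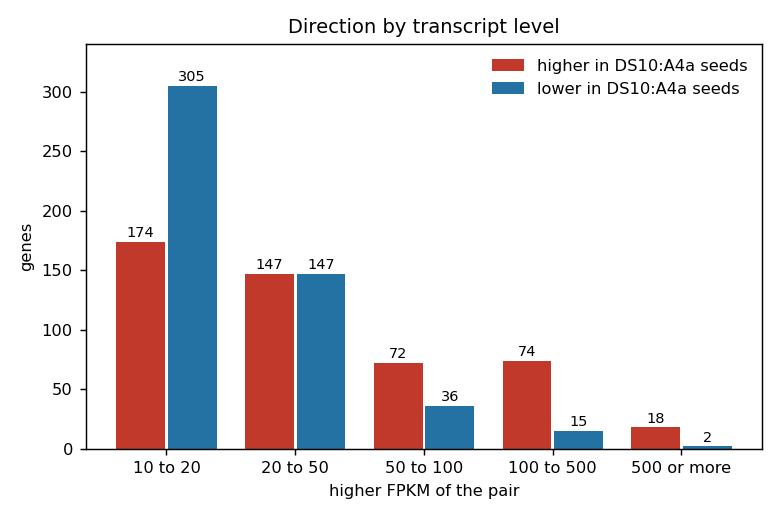
Number of genes (vertical axis) that were higher or lower in DS10:A4a seeds, by the larger FPKM of the pair (horizontal axis). Lower genes are the more frequent from 10 to 20 FPKM (305 against 174 higher), and higher genes are the more frequent above 50 FPKM. Lower genes enter from a log2 fold of -0.5 and higher genes only from 0.6, so the bars of a pair are not on equal terms.

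The most abundant transcripts of the set were those of sHSP. HSP18.0 (gene_51010) was at 3611 FPKM in DS10:A4a seeds and 1327 FPKM in NT seeds, and a 17.6 kDa class I sHSP (gene_37733) at 3569 FPKM in DS10:A4a seeds and 1301 FPKM in NT seeds. The log2 folds were 1.44 (counting interval 1.42 to 1.47) and 1.46 (1.43 to 1.48). A 17.8 kDa class I sHSP (gene_79575) was at 1561 and 786 FPKM in DS10:A4a and NT seeds, a log2 fold of 0.99. The largest sHSP folds belonged to a 17.3 kDa class II protein (gene_49931, 1054 FPKM in DS10:A4a seeds and 169 FPKM in NT seeds, log2 fold 2.64) and a 16.9 kDa class I protein (gene_25798, 103 FPKM in DS10:A4a seeds and 16.7 FPKM in NT seeds, log2 fold 2.63). All 17 sHSP genes of the set were higher, with a median log2 fold of 1.14 beside -0.50 over the whole set, and they included cytosolic, mitochondrial, peroxisomal and chloroplastic forms. Their sum was 12445 FPKM in DS10:A4a seeds and 4803 FPKM in NT seeds. Since sHSP genes were known targets of A9 and A4a when the study began, and this list was drawn up with results known, the count is a description and not independent evidence of direction.

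The larger chaperones moved less, with a few exceptions of low level. Of 16 genes of the set for HSP70, HSP90, chaperonins and ClpB, 15 were higher and 1 was lower (median log2 fold 0.76). Of 20 further genes of this list below 10 FPKM, 12 were higher and 8 lower. The abundant ones were a pair described as Mediator subunit 37c, which in Arabidopsis is a cytosolic HSP70. Gene_22359 was at 1663 FPKM in DS10:A4a seeds and 1043 FPKM in NT seeds, and gene_39586 at 1283 FPKM in DS10:A4a seeds and 806 FPKM in NT seeds, both with a log2 fold of 0.67. Heat shock protein 82 (gene_72360), an HSP90, was at 730 FPKM in DS10:A4a seeds and 380 FPKM in NT seeds (log2 fold 0.94). Larger folds were found at lower levels, in the HSP90 gene_36751 (25.6 FPKM in DS10:A4a seeds, 3.59 FPKM in NT seeds, log2 fold 2.84) and in the HSP70 genes gene_27670 (19.2 and 2.66 FPKM in DS10:A4a and NT seeds, log2 fold 2.85, counting interval 1.94 to 3.91) and gene_27675 (54.1 and 10.98 FPKM in DS10:A4a and NT seeds, log2 fold 2.30).

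Cochaperones, which feed clients to HSP70 and HSP90, gave 16 higher and 4 lower genes (median log2 fold 0.79). BAG family regulator 6, a cochaperone of HSP70, was at 551 FPKM (gene_74413) and 431 FPKM (gene_70529) in DS10:A4a seeds, against 277 and 204.7 FPKM in NT seeds. The small plastid protein DnaJ 11 was described for 5 genes, all higher, with log2 folds of 0.70 to 2.33. The largest belonged to gene_25617, at 24.96 FPKM in DS10:A4a seeds and 4.95 FPKM in NT seeds. The DnaJ 8 genes and those described as DnaJ protein homolog were split, with 2 higher and 1 lower for each.

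Tobacco's own heat stress transcription factors were higher wherever they entered the set. Below 10 FPKM, the list of heat stress factors and MBF1 held 15 further genes, 9 higher and 6 lower. The A-7a factors, which belong to the activating class A, were at 49.0 FPKM (gene_45836) and 43.96 FPKM (gene_22642) in DS10:A4a seeds, against 17.7 and 15.7 FPKM in NT seeds, with log2 folds of 1.47 and 1.48. The class B factors HSF24 were at 77.3 FPKM (gene_22763) and 25.7 FPKM (gene_71947) in DS10:A4a seeds and at 42.6 and 13.6 FPKM in NT seeds, with log2 folds of 0.86 and 0.91. Factor B-2a (gene_50637) was at 15.3 FPKM in DS10:A4a seeds and 7.33 FPKM in NT seeds (log2 fold 1.06). The coactivator MBF1c (gene_84717), a regulator of heat tolerance in Arabidopsis, was at 85.7 FPKM in DS10:A4a seeds and 35.1 FPKM in NT seeds (log2 fold 1.29), and the ethylene-responsive transcriptional coactivator gene_54459 at 218 FPKM in DS10:A4a seeds and 123 FPKM in NT seeds (0.82).

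The plot of the functional lists sets these groups beside the others.

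**Figure D3:**
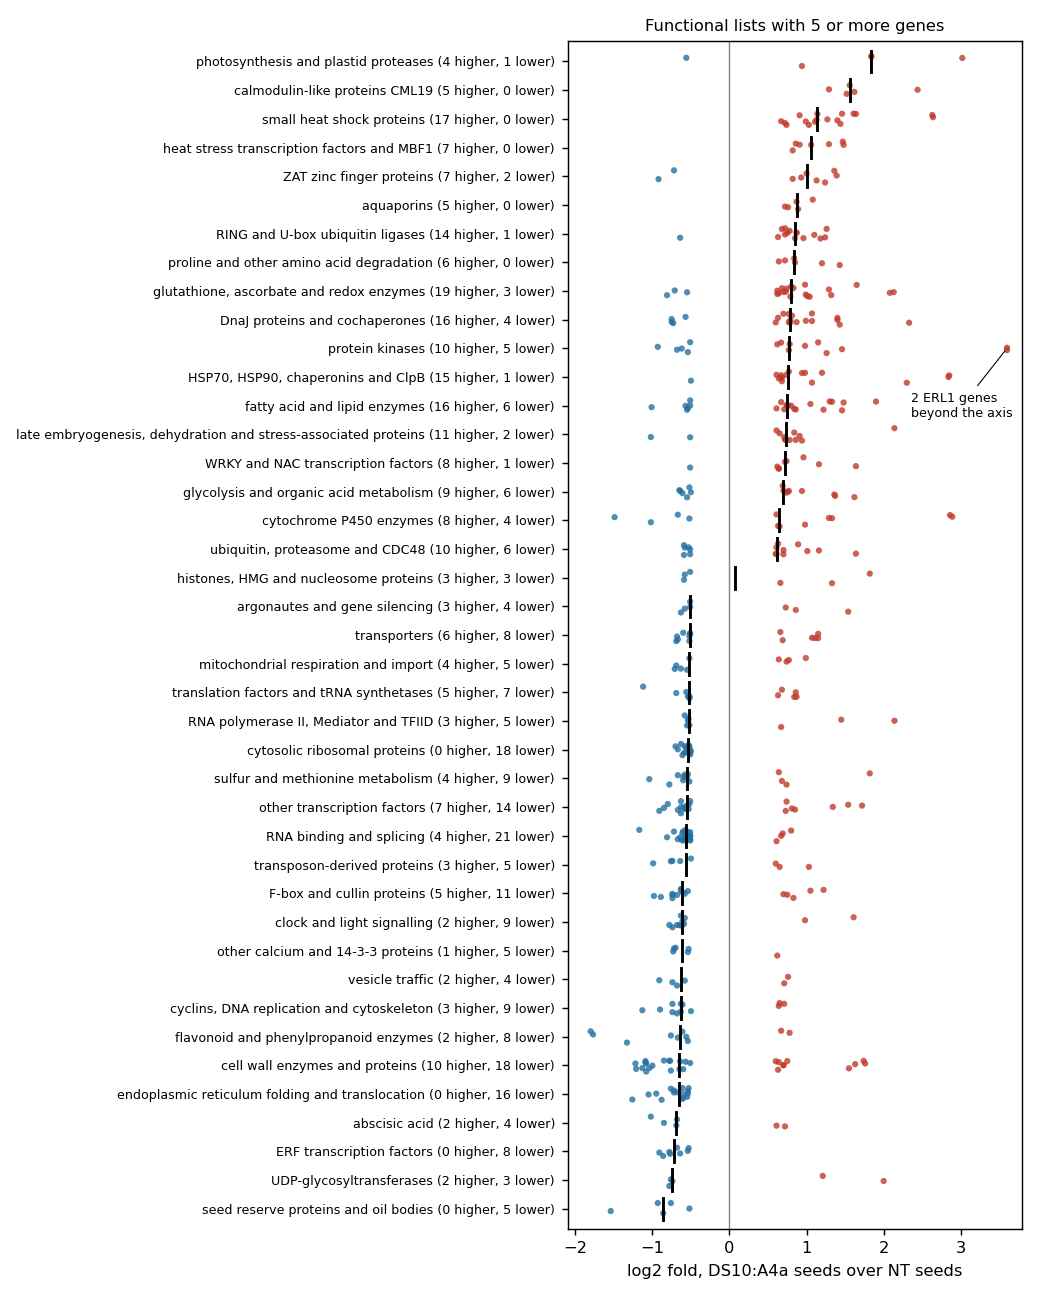
Log2 fold (DS10:A4a seeds over NT seeds, horizontal axis) of each gene in the functional lists with 5 or more genes, 1 point per gene, with the median of the list as a black line. All points of sHSP (17), CML19 (5) and aquaporin (5) genes lie on the right, all points of cytosolic ribosomal proteins (18), endoplasmic reticulum folding and translocation (16) and ERF (8) on the left, and the 2 ERL1 kinases, drawn at the right edge, lie at 8.17 and 7.48.

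The ubiquitin system was divided by class of protein. Ubiquitin, proteasome and CDC48 genes counted 10 higher and 6 lower in the set, and 47 higher and 47 lower below 10 FPKM. A polyubiquitin gene (gene_47537) was at 375 FPKM in DS10:A4a seeds and 121 FPKM in NT seeds, a log2 fold of 1.64. Of 15 genes for RING and U-box ubiquitin ligases, which choose the proteins to be tagged, 14 were higher and 1 was lower (median log2 fold 0.85). The most abundant were RING1-like gene_17436 (136 FPKM in DS10:A4a seeds and 82.6 FPKM in NT seeds), RNF181-like gene_54181 (115 FPKM in DS10:A4a seeds and 67.9 FPKM in NT seeds) and RMA1H1-like gene_74017 (57.9 FPKM in DS10:A4a seeds and 24.6 FPKM in NT seeds). Among the 193 further ligase genes of the tables below 10 FPKM, 102 were higher and 91 lower. F-box and cullin genes, from another class of ligases, counted 5 higher and 11 lower in the set, and 145 higher and 173 lower below 10 FPKM. Zinc finger A20/AN1 stress-associated proteins were abundant, at 770 FPKM (gene_32165) and 713 FPKM (gene_13349) in DS10:A4a seeds, against 429 and 380 FPKM in NT seeds.

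Genes listed for folding and translocation in the endoplasmic reticulum went the other way, with 16 lower and 0 higher (median log2 fold -0.65). The sHSP, which were all higher in the set, were grouped apart from this list whatever their compartment. This list held Sec61 subunits of the translocation channel, calreticulin and calnexin, protein disulfide isomerases and Mediator subunit 37a, in Arabidopsis the luminal HSP70 BiP. Subunit 37a (gene_6664) was at 21.8 FPKM in DS10:A4a seeds and 52.2 FPKM in NT seeds (log2 fold -1.26, counting interval -1.52 to -1.0). Calnexin (gene_87083) was at 27.6 FPKM in DS10:A4a seeds and 40.3 FPKM in NT seeds (-0.55). Of the 20 genes of this list below 10 FPKM, 9 were higher and 11 lower.

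Genes against oxidative damage were mostly higher, 19 against 3 lower (median log2 fold 0.80). Metallothionein type 2 (gene_42904), a metal-binding protein, was at 506 FPKM in DS10:A4a seeds and 252 FPKM in NT seeds (log2 fold 1.01). Probable glutathione S-transferases, which conjugate toxic compounds to glutathione, had the largest folds of the list, at 90.8 FPKM (gene_20177) and 71.6 FPKM (gene_37870) in DS10:A4a seeds and 20.8 and 17.0 FPKM in NT seeds, log2 folds of 2.13 and 2.08. A further one (gene_10147) was at 86.4 FPKM in DS10:A4a seeds and 43.4 FPKM in NT seeds.

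Late embryogenesis, dehydration and stress-associated proteins counted 11 higher and 2 lower genes in the set. Among proteins of seed drying, the dehydrin TAS14 (gene_77424) was at 468 FPKM in DS10:A4a seeds and 307 FPKM in NT seeds (log2 fold 0.61). Lea5 (gene_44720), a late embryogenesis abundant protein, was at 20.5 FPKM in DS10:A4a seeds and 4.65 FPKM in NT seeds (2.14). The salt stress-induced peptide ESI3 (gene_79490) was lower, at 108 FPKM in DS10:A4a seeds and 153 FPKM in NT seeds (-0.51). The 5 reserve and oil body genes were all lower, at 3.48 to 14.7 FPKM in DS10:A4a seeds and 10.1 to 27.1 FPKM in NT seeds. They comprised oleosin 1 (gene_77511, log2 fold -0.52) and 4 basic 7S globulins, seed proteins of the cell exterior in soybean. The lowest fold was that of gene_7121, at -1.54 (counting interval -1.77 to -1.32). The descriptions of gene_7121 and gene_4971 (-0.93) also name a phenazine biosynthesis-like protein, so these folds may not be those of a globulin alone. As the tables hold only genes past a threshold, reserve genes at similar levels in both libraries are not seen here.

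The largest folds of the set lay outside the heat shock list. The receptor-like kinase ERL1, which limits stomatal lineages in Arabidopsis, was at 25.8 FPKM (gene_61133) and 19.7 FPKM (gene_15486) in DS10:A4a seeds. In NT seeds these genes were at 0.09 and 0.11 FPKM, or 4 and 6 fragments. Their log2 folds were 8.17 (counting interval 6.81 to 10.04) and 7.48 (6.36 to 8.93). Because the NT values were close to 0, the size of these folds depended on the scale, and they were 4.62 and 4.22 with log2(FPKM + 1).

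An FtsH protease (gene_22233), an ATP-dependent protease of organelle membranes, was at 21.6 FPKM in DS10:A4a seeds and 2.66 FPKM in NT seeds (log2 fold 3.02). CYP72A219, a cytochrome P450, was at 21.0 FPKM (gene_50242) and 12.9 FPKM (gene_49142) in DS10:A4a seeds, against 2.90 and 1.74 FPKM in NT seeds (2.86 and 2.89). Ran-binding protein 1, which promotes GTP hydrolysis by Ran in nuclear transport, was at 115 FPKM (gene_63078) and 72.7 FPKM (gene_19878) in DS10:A4a seeds, against 23.6 and 11.3 FPKM in NT seeds (2.29 and 2.69). GEM-like protein 4 (gene_23328) was at 18.3 FPKM in DS10:A4a seeds and 2.90 FPKM in NT seeds (2.65). Each of FtsH, CYP72A219 and Ran-binding protein 1 had 2 genes described by that name in the set, both higher, and the FtsH folds were the least alike (3.02 and 1.84). Of genes without a described product, gene_74515 was at 19.5 FPKM in DS10:A4a seeds and 1.16 FPKM in NT seeds (4.07), and gene_7576 at 19.2 FPKM in DS10:A4a seeds and 1.36 FPKM in NT seeds (3.82).

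**Figure D4:**
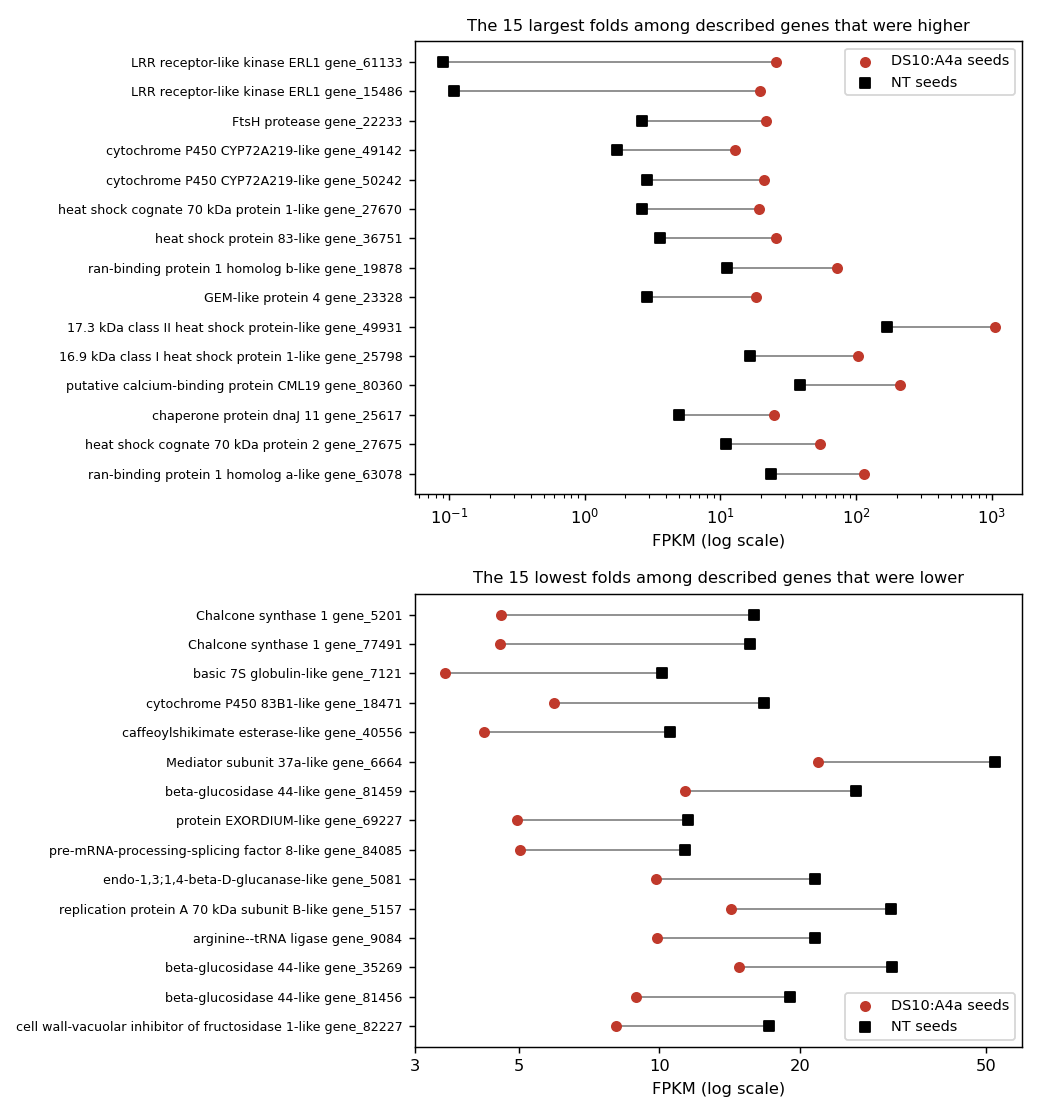
FPKM in DS10:A4a seeds (red circles) and NT seeds (black squares) for the 15 largest folds among higher genes (upper panel) and the 15 lowest among lower genes (lower panel), described genes only, on log axes that differ between panels. The ERL1 genes stand apart at 0.09 and 0.11 FPKM in NT seeds, and the chalcone synthase genes head the lower panel with log2 folds of -1.80 and -1.77.

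Several families of calcium and stress signalling had their genes of the set on 1 side. The 5 genes of CML19, a calmodulin-like calcium-binding protein, that entered the set were all higher, at 94.8 to 474 FPKM in DS10:A4a seeds and 38.7 to 160 FPKM in NT seeds, with a median log2 fold of 1.56. Of 4 further CML19 genes below 10 FPKM, 3 were higher and 1 lower. The largest fold was that of gene_80360 (211 FPKM in DS10:A4a seeds and 39.0 FPKM in NT seeds, log2 fold 2.44). The regulator of gene silencing (gene_76480), a tobacco calmodulin-like protein that suppresses RNA silencing, was at 179 FPKM in DS10:A4a seeds and 61.5 FPKM in NT seeds (1.54). Kinase OXI1, which responds to hydrogen peroxide in Arabidopsis, was described for 3 genes, all higher, with log2 folds of 1.15 to 1.46. By contrast, the other calcium and 14-3-3 genes counted 1 higher and 5 lower, such as 14-3-3 protein 9 (gene_27546, 28.5 FPKM in DS10:A4a seeds and 47.2 FPKM in NT seeds, -0.73).

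Transcription factor families differed in direction. All 5 ZAT12 genes of the set, for a zinc finger factor of stress responses in Arabidopsis, were higher (log2 folds of 0.82 to 1.39), led in level by gene_30550 at 65.7 FPKM in DS10:A4a seeds and 27.9 FPKM in NT seeds. The related ZAT10 was split, with gene_23246 (24.9 FPKM in DS10:A4a seeds, 47.2 FPKM in NT seeds, -0.92) and gene_47136 (26.1 FPKM in DS10:A4a seeds, 43.0 FPKM in NT seeds, -0.72) lower and 1 other gene higher. Below 10 FPKM the ZAT genes counted 9 higher and 9 lower. WRKY and NAC factors counted 8 higher and 1 lower (median log2 fold 0.72), among them all 3 WRKY40 genes and NAC domain-containing protein 2 (gene_81948, 99.1 FPKM in DS10:A4a seeds and 60.01 FPKM in NT seeds). The WRKY and NAC genes below 10 FPKM lay more often on the other side, with 42 higher and 63 lower. LOB domain-containing protein 41 (gene_52601) was at 496 FPKM in DS10:A4a seeds and 297 FPKM in NT seeds (0.74).

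Genes described as ethylene-responsive transcription factors or EIN3-binding F-box proteins were lower in the set. They were grouped by description, and no direction of ethylene signalling is read from them. All 8 ethylene-responsive transcription factors (ERF) were lower (median log2 fold -0.72), 5 of them ERF109 and 2 ABR1. ABR1-like gene_52083 was at 41.4 FPKM in DS10:A4a seeds and 71.1 FPKM in NT seeds (-0.78). The 4 EIN3-binding F-box genes, whose products degrade the ethylene factor EIN3, were lower too, with gene_24448 at 45.6 FPKM in DS10:A4a seeds and 84.8 FPKM in NT seeds (-0.89) and gene_20707 at 13.2 FPKM in DS10:A4a seeds and 26.1 FPKM in NT seeds (-0.98). The 81 ERF genes below 10 FPKM were less one-sided, with 34 higher and 47 lower.

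Of the abscisic acid genes, 2 were higher and 4 lower. Abscisic acid 8'-hydroxylase 1 (gene_55552), which breaks down the hormone, was at 32.4 FPKM in DS10:A4a seeds and 65.5 FPKM in NT seeds (log2 fold -1.02, counting interval -1.12 to -0.91). The bZIP factor ABSCISIC ACID-INSENSITIVE 5-like protein 7 (gene_6918) was at 15.1 FPKM in DS10:A4a seeds and 27.1 FPKM in NT seeds (-0.85). The receptor PYL9 was described for 1 higher and 1 lower gene.

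Clock and light signalling gave 2 higher and 9 lower genes in the set (median log2 fold -0.62), and 11 higher and 10 lower genes below 10 FPKM. COP1-like (gene_15927), the ubiquitin ligase that represses photomorphogenesis in darkness, was at 25.5 FPKM in DS10:A4a seeds and 39.3 FPKM in NT seeds (-0.62). EID1-like F-box protein 3 (gene_11848) was at 34.0 FPKM in DS10:A4a seeds and 52.7 FPKM in NT seeds (-0.63). The clock gene EARLY FLOWERING 4 had lower copies at 131 FPKM (gene_39494) and 85.6 FPKM (gene_21800) in DS10:A4a seeds, against 198 and 128 FPKM in NT seeds, and 1 higher copy. No phytochrome, cryptochrome, phototropin, HY5 or SPA gene reached 10 FPKM in either library of these tables. Such genes at similar levels in both libraries are not listed, so their absence does not show a low level.

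In glycolysis and organic acid metabolism 9 genes were higher and 6 lower, whereas below 10 FPKM 21 were higher and 37 lower. Cytosolic phosphoglycerate kinase was at 393 FPKM (gene_63519) and 258 FPKM (gene_39010) in DS10:A4a seeds, against 152 and 101 FPKM in NT seeds (log2 folds 1.37 and 1.36), and cytosolic aconitase (gene_6454) at 236 FPKM in DS10:A4a seeds and 138 FPKM in NT seeds (0.77). The 9 higher genes included each cytosolic or cytoplasmic glyceraldehyde-3-phosphate dehydrogenase, phosphoglycerate kinase and aconitase gene of the set. Proline dehydrogenase, the mitochondrial enzyme that oxidises proline, was at 99.9 FPKM (gene_2900) and 64.1 FPKM (gene_41028) in DS10:A4a seeds, against 43.6 and 23.7 FPKM in NT seeds (1.2 and 1.43).

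Fatty acid and lipid enzymes counted 16 higher and 6 lower genes (median log2 fold 0.75), and 87 of each below 10 FPKM. Stearoyl desaturases, which place the first double bond in C18 fatty acids, were at 137 FPKM (gene_78067) and 102 FPKM (gene_3827) in DS10:A4a seeds, against 59 and 36.7 FPKM in NT seeds (1.22 and 1.48). The higher genes included 2 of diacylglycerol acyltransferase 1, the last enzyme of oil synthesis, and 3 of peroxisomal beta-oxidation, which degrades fatty acids. The vacuolar proton pyrophosphatase was at 59.5 FPKM (gene_32125) and 50.2 FPKM (gene_32463) in DS10:A4a seeds, against 26.9 and 23.9 FPKM in NT seeds. All 5 aquaporin genes of the set, for water channels of the plasma membrane, were higher (log2 folds of 0.72 to 1.08), led by gene_33598 at 89.1 FPKM in DS10:A4a seeds and 48.8 FPKM in NT seeds. Of 31 further aquaporin genes below 10 FPKM, 18 were higher and 13 lower.

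Phenylpropanoid and flavonoid enzymes gave 2 higher and 8 lower genes in the set, and 27 higher and 39 lower below 10 FPKM. The 2 lowest folds among all described genes of the set were in this list. Chalcone synthase 1, the entry enzyme of flavonoid synthesis, was at 4.58 FPKM (gene_5201) and 4.57 FPKM (gene_77491) in DS10:A4a seeds, against 15.9 and 15.6 FPKM in NT seeds (log2 folds -1.80 and -1.77). The values of these copies were nearly equal in each library, and copies this alike can share reads. Caffeoylshikimate esterase (gene_40556), an enzyme of lignin synthesis, was at 4.21 FPKM in DS10:A4a seeds and 10.6 FPKM in NT seeds (-1.33). Flavanone 3-hydroxylase, a later enzyme of flavonoid synthesis, was among the higher genes (13.3 FPKM in DS10:A4a seeds and 8.34 FPKM in NT seeds, 0.67), and is named here after its values were seen. Cytochrome P450 83B1 (gene_18471), which belonged to the list of cytochrome P450 enzymes and not to this one, was at 5.96 FPKM in DS10:A4a seeds and 16.7 FPKM in NT seeds (-1.49). The P450 list counted 8 higher and 4 lower genes in the set, and 74 of each below 10 FPKM.

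Cell wall genes were split by family, 10 higher and 18 lower. All 5 genes of beta-glucosidase 44, a glycoside hydrolase, were lower by a narrow range of log2 folds (-1.22 to -1.0), such as gene_35269 at 14.8 FPKM in DS10:A4a seeds and 31.4 FPKM in NT seeds. All 5 EXORDIUM genes, which promote cell expansion in Arabidopsis, and all 3 endo-1,3;1,4-beta-D-glucanase genes were lower as well. Genes on the higher side included BRU1-like gene_35328 (80.7 FPKM in DS10:A4a seeds and 49.5 FPKM in NT seeds, 0.70) and xyloglucan endotransglucosylase 25 (gene_48956, 89.1 FPKM in DS10:A4a seeds and 58.6 FPKM in NT seeds, 0.60), both of the family that cuts and rejoins xyloglucan.

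Ribosomal protein genes of the set were lower by small folds. All 18 cytosolic ribosomal protein genes (log2 folds -0.70 to -0.50) and all 4 organellar ones (-0.79 to -0.50) were lower. Ribosomal protein L4 (gene_19908) was at 143 FPKM in DS10:A4a seeds and 203 FPKM in NT seeds (-0.51, counting interval -0.57 to -0.45), and 40S protein S15 (gene_56642) at 121 FPKM in DS10:A4a seeds and 174 FPKM in NT seeds (-0.53). Elongation factor 1-alpha (gene_55875) was at 328 FPKM in DS10:A4a seeds and 469 FPKM in NT seeds (-0.52). The translationally-controlled tumor protein (gene_19203) was at 381 FPKM in DS10:A4a seeds and 547 FPKM in NT seeds (-0.52). Translation factors and tRNA synthetases were on both sides, 5 higher and 7 lower, and summed to 2739 FPKM in DS10:A4a seeds and 2255 FPKM in NT seeds. The initiation factor SUI1, which helps to select the start codon, was among the higher ones, at 1233 FPKM (gene_78197) and 614 FPKM (gene_80520) in DS10:A4a seeds, against 681 and 336 FPKM in NT seeds (0.86 and 0.87). With the lower table opening at -0.5, no ribosomal gene with a smaller fold could be seen, nor a higher one under 0.6.

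RNA processing and cell division genes of the set leaned the same way. RNA-binding and splicing genes counted 4 higher and 21 lower (median log2 fold -0.56), such as splicing factor 3B subunit 1 (gene_24097, 65.3 FPKM in DS10:A4a seeds and 101 FPKM in NT seeds). The median of the lower ones, -0.57, lay between -0.5 and -0.6, where no higher gene can be listed. Below 10 FPKM this list counted 52 higher and 70 lower, beside 13618 higher and 16011 lower over all genes of the tables. Cyclin, DNA replication and cytoskeleton genes counted 3 higher and 9 lower, among them subunit B of replication protein A (gene_5157, -1.13), which coats single-stranded DNA. Argonaute 2 had 2 higher genes, such as gene_46617 at 21.4 FPKM in DS10:A4a seeds and 12.9 FPKM in NT seeds (0.73), whereas argonaute 1 and argonaute 4, which guide microRNA action and DNA methylation, had 3 lower genes, such as gene_34886 at 14.4 FPKM in DS10:A4a seeds and 20.4 FPKM in NT seeds (-0.51). In RNA polymerase II, subunit 6B was at 102 FPKM (gene_40221) and 36.0 FPKM (gene_40196) in DS10:A4a seeds, against 37.2 and 8.20 FPKM in NT seeds (1.45 and 2.14).

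Markers of tissue composition were few in the set. Those of seed reserves and late maturation counted 1 higher and 5 lower genes in the set, and 5 higher and 14 lower over the tables. Over the tables they summed to 79.4 FPKM in DS10:A4a seeds and 108.8 FPKM in NT seeds. Protodermal factor 1 (gene_16465), a marker of the outer cell layer, was at 104 FPKM in DS10:A4a seeds and 161 FPKM in NT seeds (log2 fold -0.63). Of green tissue markers, both photosystem II 10 kDa genes were higher, gene_38985 at 76.1 FPKM in DS10:A4a seeds and 21.2 FPKM in NT seeds (1.84) and gene_70553 at 47.0 FPKM in DS10:A4a seeds and 24.5 FPKM in NT seeds (0.94). The third green tissue marker in the set was a locus described both as a chlorophyll a-b binding protein and as a histone H2A, so that its fold (-0.56) is not that of either alone. Over the tables, 31 green tissue genes were higher and 40 lower. Of the 70 genes of endosperm weakening in the tables (mannanase, beta-1,3-glucanase, expansin), none reached 10 FPKM. They summed to 33.4 FPKM in DS10:A4a seeds and 33.2 FPKM in NT seeds. Marker genes at similar levels in both libraries are not listed, whatever their level, so these sums are not those of the tissue. The part of tissue composition in the folds above was not tested.

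Tobacco is an allotetraploid of Nicotiana sylvestris and Nicotiana tomentosiformis, and many descriptions were held by several genes. Of 122 descriptions held by 2 or more genes of the set, 71 had all genes higher, 39 all lower and 12 genes on both sides. Near-identical copies can share reads, so that they are not independent of each other. The best hit was from N. sylvestris for 183 higher and 187 lower genes and from N. tomentosiformis for 182 higher and 157 lower genes.

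A measure of the spread between NT seed pools came from the 59 genes of the set that were also in the A9up table. That table lists the genes upregulated in DS10:A9 seeds and 35S:A9 seedlings, and it gives a further NT seed library. The NT pools were siblings of different transgenic lines, so differences between lines and between pools cannot be told apart. For these genes the NT libraries differed by a median of 0.45 on the log2 scale regardless of sign, and by 0.6 or more in 19. The ratio (NT library of the A9 table over that of the A4a table) ranged from -3.04 to 3.52. The A9up table was selected on its NT values and was normalized separately, so this spread is not that of all genes. Both measures share the NT library of the A4a table, and the genes were chosen on their A4a fold and on a low NT value in the A9 table, so the one was not set against the other. The highest ratio, 3.52, was that of the undescribed gene_2226, singled out after its values were seen, at 10.2 FPKM in DS10:A4a seeds and at 1.06 and 12.1 FPKM in the NT libraries of the A4a and A9 tables. Folds of a size near this median were found on both sides, such as those of cytosolic ribosomal proteins (-0.70 to -0.50) and TAS14 (0.61). The 59 genes held no ribosomal protein gene, and whether such folds exceed the spread between pools was not tested.

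**Figure D5:**
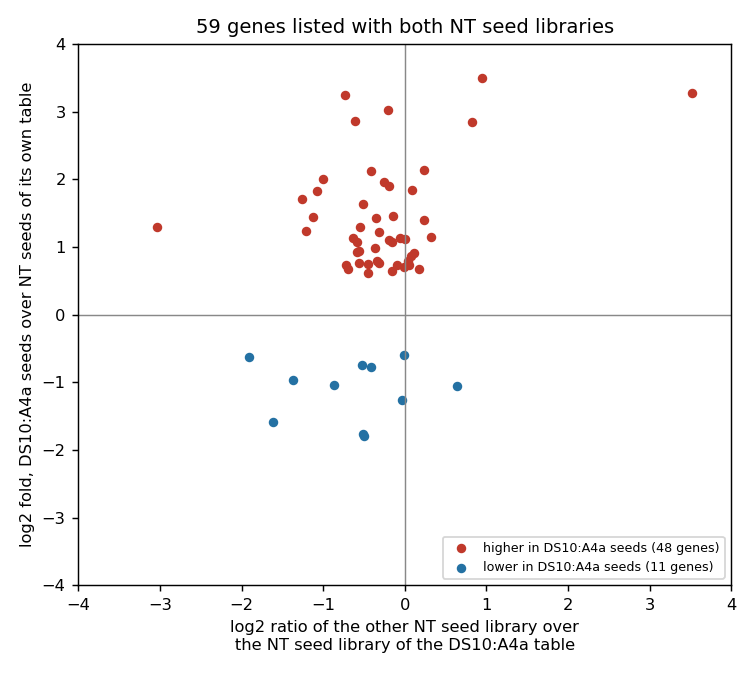
Log2 fold of DS10:A4a seeds over the NT seeds of the same table (vertical axis) against the log2 ratio of both NT seed libraries (horizontal axis) for the 59 genes listed with both, 1 point per gene. The NT difference reaches -3.04 and 3.52 in the most distant points, and both axes share the NT library of the A4a table, so the position of a point on one is not independent of the other.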

How the data were processed

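RNA of DS10:A4a seeds and NT seeds was sequenced by the study as 1 pooled library each. The authors mapped filtered reads to the tobacco assembly Ntab-BX_AWOK-SS with HISAT 0.1.6, merged reconstructed transcripts with the reference transcriptome, mapped to it with Bowtie2 2.2.5 and estimated levels with RSEM 1.2.12. The submitters' processing notes also name StringTie 1.04. The deposited FPKM are estimates with 0.01 for 0, and the tables hold only genes past log2 thresholds of 0.6 and -0.5. Deposited fold changes and p-values were not used. The labels do not say which of the NT seed samples each table holds.

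Folds were recomputed as the log2 of the FPKM ratio without a pseudocount (Python 3.11.15, NumPy 2.4.6, SciPy 1.17.1). Depth was found as the value that made low FPKM whole numbers of fragments, after shortening genes by 65 bases for DS10:A4a seeds and 70 for NT seeds. Within a tolerance of 0.15, 91.7% of 3764 values in DS10:A4a seeds and 88.8% of 3722 values in NT seeds were whole. Both steps were checked on simulated counts. As each group had 1 library, no test and no p-value across groups was made.

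Genes were grouped by 48 patterns on the deposited descriptions, and a gene could be in several. The patterns were adjusted after the descriptions had been seen, and 508 of the 990 genes were in at least 1 list, while 299 had no described product. Named genes followed a rule: among described genes, the 12 highest levels and the 15 largest folds in each direction, in each list of 4 or more genes the 3 highest means and folds of at least 2 or at most -1.5, all heat stress factors and light-signalling genes, and the 2 largest folds of undescribed genes in each direction. Not every gene under this rule is given in the text. Members and lists were chosen with earlier results of these data known. Alternatives were minimum levels of 5 and 20 FPKM, thresholds of 0.6 and -0.6, pseudocounts of 0.1 and 1, counting intervals past the fold and no length offset.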

Additional observations from a re-analysis of the deposited data

Results flagged for a closer look

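Of the 59 genes of the set in the A9up table, 48 (81.4%) were higher in both seed comparisons and 11 were on opposite sides, lower in DS10:A4a seeds and, as the A9up table requires, higher in DS10:A9 seeds than in their own NT seeds. Over the whole set of 990 genes 49.0% were higher in DS10:A4a seeds. Without a minimum level, the paper lists nearly equal numbers of A9up genes as higher and as lower in DS10:A4a seeds. The share of 81.4% therefore holds for the 59 genes at 10 FPKM or more and not for A9up genes in general. With 1 library per group the difference between the comparisons was not tested, and each comparison had its own NT library.

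Chalcone synthase 1 had log2 folds of -1.80 (gene_5201) and -1.77 (gene_77491) in the A4a comparison, and 1.37 and 1.38 in the A9 comparison, where it was at 29.2 and 28.5 FPKM in DS10:A9 seeds and at 11.3 and 10.98 FPKM in NT seeds. The values in DS10:A4a seeds, 4.58 and 4.57 FPKM, were below both NT libraries. Mediator subunit 37a had log2 folds of -1.26 (gene_6664) and -1.05 (gene_60513) in the A4a comparison and 0.70 and 0.73 in the A9 comparison. Gene_6664 was at 83.1 FPKM in DS10:A9 seeds and 51.3 FPKM in their NT seeds, close to the 52.2 FPKM of the NT seeds of the A4a table. UDP-glycosyltransferase 73C3 had log2 folds of -0.78 (gene_65913) and -0.74 (gene_55057) in the A4a comparison and 0.64 and 0.71 in the A9 comparison, while a further copy (gene_1107) was higher in both, at 2.0 and 0.63.

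The other 5 genes had no described product. Gene_64914 had log2 folds of -1.59 (A4a) and 1.19 (A9), and gene_69319 of -1.04 and 1.10. Gene_46117 had -0.97 and 0.78, gene_44974 -0.63 and 1.6, and gene_58872 -0.59 and 0.91. Of the 11, the undescribed gene_64914, gene_46117 and gene_44974 were not below the NT library of the A9 table in DS10:A4a seeds. Apart from gene_64914, these undescribed genes, and likewise gene_60513 and gene_65913, are named for their opposite folds, after their values were seen.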

How the results depend on the processing

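No paired analysis was possible because each group had 1 pooled library, and leaving out a replicate was likewise not possible. With a minimum level of 5 FPKM the set held 874 higher and 1165 lower genes, of which 346 had a log2 fold of 1 or more and 134 one of -1 or less. With a minimum of 20 FPKM there were 311 higher and 200 lower genes, and 11 genes at -1 or less. With symmetric thresholds of 0.6 and -0.6, 262 lower genes were left. With the counting interval wholly past the fold, 10 genes were at -1 or less. Of the named genes, 7 of 178 moved outside their counting interval with log2(FPKM + 1), among them the ERL1 genes (4.62 and 4.22), and none with log2(FPKM + 0.1). The depth without a length offset was 14862000 fragments for DS10:A4a seeds and 14654000 for NT seeds.

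The median fold of lists with genes on both sides changed sign under some settings. With a minimum of 20 FPKM it was 1.21 for UDP-glycosyltransferases, 0.79 for argonautes and gene silencing, 1.06 for RNA polymerase II, Mediator and TFIID, 0.64 for mitochondrial respiration and import, 1.07 for transporters and 0.02 for vesicle traffic. With a minimum of 5 FPKM it was 0.09 for vesicle traffic and 0.35 for protease inhibitors. With thresholds of 0.6 and -0.6 it was 0.68 for translation factors and tRNA synthetases, 0.79 for argonautes and gene silencing, 1.45 for RNA polymerase II, Mediator and TFIID, 0.05 for other transcription factors, 0.64 for mitochondrial respiration and import, 0.02 for sulfur and methionine metabolism, 0.68 for transporters and 0.39 for protease inhibitors. These lists are therefore given by their genes, not by a direction. The alternatives in which fewer genes near -0.5 enter leave out lower genes by construction.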

Other observations

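Below 10 FPKM, where counting error is larger, some lists of the same tables kept the side seen in the set, others had no lean and others leaned the other way. Of 20 further raffinose family and alpha-galactosidase genes, enzymes that make or break down the raffinose sugars of dry seeds, 17 were higher and 3 lower. Organellar ribosomal proteins counted 6 higher and 24 lower genes of 30, cytosolic ones 13 higher and 31 lower of 44, and growth-regulating and TCP factors 10 higher and 29 lower of 39. Cyclin, DNA replication and cytoskeleton genes counted 43 higher and 83 lower of 126. Lists with more lower genes, against more higher genes in the set, were WRKY and NAC factors (42 higher and 63 lower), glycolysis and organic acid metabolism (21 higher and 37 lower) and late embryogenesis and stress-associated proteins (8 higher and 10 lower). Clock and light signalling, mostly lower in the set, counted 11 higher and 10 lower. By contrast, redox enzymes (51 higher and 50 lower of 101), DnaJ proteins and cochaperones (23 higher and 19 lower of 42), and fatty acid and lipid enzymes (87 higher and 87 lower of 174) had no such lean. The share of higher genes was 46.0% over every gene listed.

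Families outside the lists also held several genes on 1 side, with values given here after they were seen. The stem-specific protein TSJT1 was described for 4 genes, all higher, with log2 folds of 0.91 to 1.15. The chloroplastic protein BPS1 was described for 3 higher genes (0.62 to 1.39). The protein YLS9 was described for 2 higher and 2 lower genes, with log2 folds of -0.58 to 1.89.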
